A study of Mus musculus with 6 samples.

Results

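The 7 genes of the mouse dorsal root ganglion (DRG) described here are Th, Ddc, Gch1, Slc17a8, Fam19a4 (now named Tafa4), Gm7271 and Zfp521. They were chosen by name as genes of the TH+ C-fibre low-threshold mechanoreceptors (C-LTMRs), together with partners of dopamine synthesis. The rule uses no measured value, but earlier results of these data were known when it was written. All 7 were found by Ensembl identifier among the 47937 rows of the count table, and all 7 passed the filter of at least 10 counts in total. C-LTMRs are unmyelinated sensory neurons that end around hair follicles of hairy skin and respond to gentle stroking. In the DRG they are the neurons best known for making tyrosine hydroxylase (TH), the enzyme that turns tyrosine into L-DOPA in the rate-limiting step of dopamine synthesis, and they also carry the vesicular glutamate transporter VGLUT3 and the secreted protein TAFA4. TH needs tetrahydrobiopterin as its cofactor, whose synthesis starts with the enzyme encoded by Gch1, and L-DOPA becomes dopamine through the decarboxylase encoded by Ddc.

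RNA was sequenced from whole DRGs of cervical, thoracic and lumbar levels in 3 control and 3 Tlx3cko mice of the C57BL/6 strain, about 2 months old. The labels give the controls as wild type, while the behavioural controls of the same study were Tlx3F/F littermates. Tlx3cko mice were labelled Tlx3f/f;SNS-cre, that is, floxed Tlx3 with Cre expressed under Nav1.8 (SNS), so the transcription factor gene Tlx3 was deleted only in the Nav1.8 lineage while other DRG neurons, glia and vessels in the tissue kept it. Total counts per library, in order of replicate number, were 13761480, 15006871 and 18775628 for the control mice and 15535247, 11458299 and 15303922 for the Tlx3cko mice. Pan-neuronal and DRG markers were abundant in every library, with Prph between 22279 and 39646 counts and Avil between 10666 and 20224 counts. Tlx3 itself had 1828, 2262 and 2433 counts in the controls and 1717, 1052 and 1475 counts in the Tlx3cko libraries, a log2 fold change of -0.46 (SE 0.09, edgeR adjusted p = 0.0122). With control replicate 2, Tlx3cko replicate 2 or Tlx3cko replicate 3 left out the Tlx3 difference no longer passed (edgeR adjusted p = 0.0606, 0.0910 and 0.0706), nor did it with control replicate 3 as the only control (adjusted p = 0.175). Sex was not balanced between the groups. Xist reads (591 and 493) came from control replicates 1 and 2, where the Y-linked gene Ddx3y was at 0. The remaining control and the Tlx3cko libraries held at least 273 Ddx3y reads each and no more than 2 from Xist.

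RefSeq promoter sequences of the 3 genes with the largest falls are shown first, because these genes moved in the same direction in Tlx3cko DRGs. They are on the minus strand of GRCm38.p6 and are written 5′ to 3′ toward the transcript start. Windows of 300 bases around each start were searched on both strands for TGTGGT (the RUNX core), TGACGTCA (the cAMP response element), TAATTA (a homeodomain core) and AAAGGTCA (the NBRE of NR4A receptors), and a match is in capitals.
Th, chr7:142900016-142900245: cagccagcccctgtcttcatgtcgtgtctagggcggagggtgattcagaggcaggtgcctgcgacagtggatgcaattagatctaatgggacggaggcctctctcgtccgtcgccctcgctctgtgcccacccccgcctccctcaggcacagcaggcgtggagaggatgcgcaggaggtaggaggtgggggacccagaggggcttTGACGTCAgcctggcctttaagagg
Slc17a8, chr10:89621270-89621499: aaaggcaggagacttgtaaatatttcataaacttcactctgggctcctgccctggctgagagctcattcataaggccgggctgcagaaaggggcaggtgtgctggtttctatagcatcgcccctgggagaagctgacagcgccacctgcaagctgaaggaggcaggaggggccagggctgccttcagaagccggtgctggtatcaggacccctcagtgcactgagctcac
Fam19a4, chr6:97060432-97060661: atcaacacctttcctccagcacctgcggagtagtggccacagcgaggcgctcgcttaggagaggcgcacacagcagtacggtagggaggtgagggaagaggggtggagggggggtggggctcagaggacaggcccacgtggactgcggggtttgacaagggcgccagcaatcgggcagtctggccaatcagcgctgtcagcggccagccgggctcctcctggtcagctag
The Th promoter held the complete cAMP response element with its first base at position -45 (negative positions lie before the transcript start), a match found in 1.79% of all 32851 promoter windows. The Fam19a4 window and the window of this first Slc17a8 start held none of the 4 motifs. The second annotated Slc17a8 start had TAATTA at position -141 (5.29% of all windows), the first Ddc start had AAAGGTCA on the reverse strand at position -73 (1.51%), and the Gch1 window had no match. The second Ddc window also held no match. The RUNX core was in 16.8% of all windows and in none of those of Th, Ddc, Gch1, Slc17a8 and Fam19a4. No window was available for Gm7271 or Zfp521, so their promoters were not searched.

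Th, Slc17a8, Fam19a4, Gm7271 and Zfp521 fell in Tlx3cko DRGs, whereas Ddc and Gch1 did not pass the test. Th kept 13.3% of its control level, Slc17a8 27.3%, Fam19a4 38.0%, Gm7271 41.2% and Zfp521 65.6%. Thus 5 of the 7 genes were lower at an adjusted p under 0.05 and 0 were higher, where 2.56% of the 20006 genes tested were lower, 1.69% were higher and 4.25% were called in either direction (edgeR's quasi-likelihood F-test, Benjamini-Hochberg over all genes tested). In the same 5 genes every Tlx3cko library lay below every control library, which 10.8% of all genes tested did (8.87% lay above and 19.7% did not overlap in either direction). The median log2 fold change was -1.28 over the 7 genes and -0.00 over all genes tested. In whole ganglia, fewer cells of a type and less RNA per cell cannot be told apart. With only the libraries that carried Y-linked reads, 4 of the 7 genes were lower past the threshold, all but Zfp521. That fit had 1 control library (replicate 3) against 3 Tlx3cko libraries and took its spread from the latter alone, so an effect of sex was not tested.

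**Figure D1:**
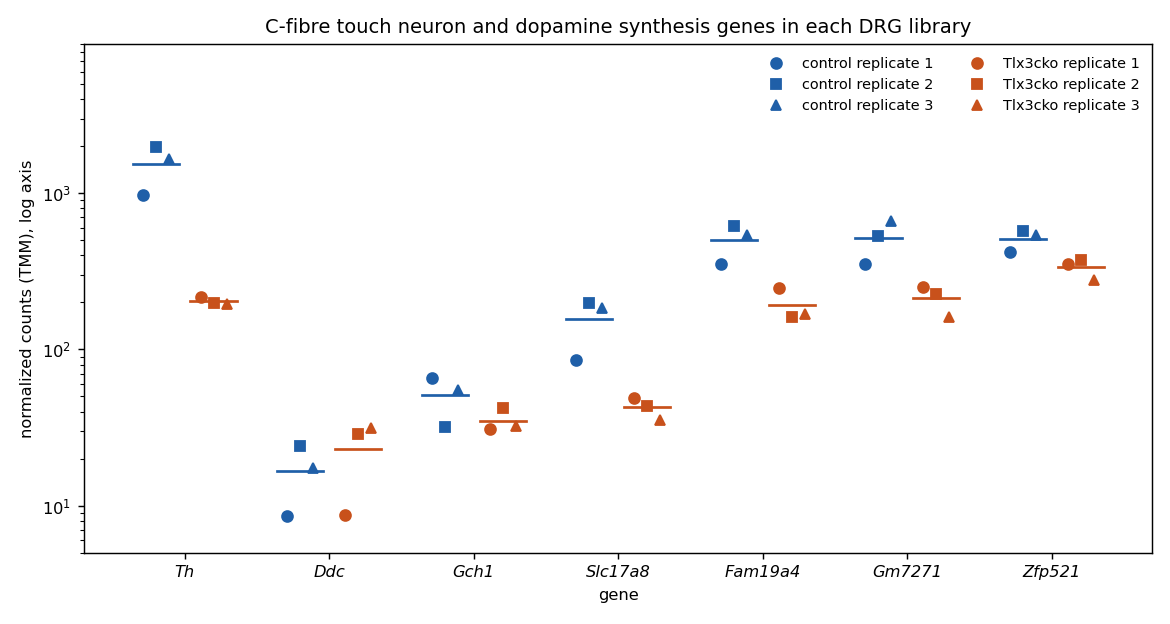
Normalized counts of the 7 genes (log axis) in each of the 6 DRG libraries, with control libraries in blue, Tlx3cko libraries in orange, marker shape for the replicate number and a bar at the group mean. The Tlx3cko points lie below all control points for Th, Slc17a8, Fam19a4, Gm7271 and Zfp521 and are mixed with them for Ddc and Gch1.

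Th (ENSMUSG00000000214, chromosome 7, 142892752 to 142931128, minus strand) was counted 902, 1964 and 2079 times in the controls, taken in order of replicate number, and 226, 150 and 198 times in the Tlx3cko libraries. Counts scaled by TMM to a common library size, called normalized counts from here on, were 974, 1959 and 1658 in the controls and 218, 197 and 195 in Tlx3cko. Control replicate 1 stood well below the other controls, but was still far above the Tlx3cko libraries, which lay close together. The means were 1530 ± 505 (SD, n = 3) and 203.1 ± 12.5 (SD, n = 3) normalized counts, and the log2 fold change was -2.91 (SE 0.21, 95% interval -3.37 to -2.46, edgeR adjusted p = 5.54e-06). By log2 fold change Th ranked 137 from the lowest among 20006 genes. Without control replicate 1 its log2 fold change was -3.15, also past the threshold. Against control replicate 3 alone it was -3.03.

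Ddc (ENSMUSG00000020182, chromosome 11, 11814101 to 11898144) was scarce, with 8, 24 and 22 counts in the controls and 9, 22 and 32 counts in Tlx3cko DRGs. After normalization these were 8.63, 23.9 and 17.5 against 8.66, 28.9 and 31.5. The groups overlapped through Tlx3cko replicate 1, which was close to the lowest control, while the other Tlx3cko libraries lay above the controls. The means were 16.7 ± 7.69 and 23.0 ± 12.5 normalized counts (SD, n = 3 each). The log2 fold change of 0.44 (SE 0.53, edgeR adjusted p = 0.804) had a 95% interval from -0.72 to 1.60, which does not reach the fall of Th but spans changes in either direction. With 1 library left out it ranged from 0.12 (without Tlx3cko replicate 3) to 0.84 (without Tlx3cko replicate 1), and control replicates 1 and 2 and Tlx3cko replicate 2 moved it to 0.14, 0.77 and 0.26 when left out.

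Gch1 (ENSMUSG00000037580, chromosome 14, 47153895 to 47189413) had 61, 32 and 69 counts in the controls and 32, 32 and 33 counts in Tlx3cko libraries. Control replicates 1 and 3 were above the Tlx3cko libraries and control replicate 2 was among them, at 31.9 normalized counts against 30.8, 42.0 and 32.5. The means were 50.9 ± 17.3 and 35.1 ± 6.04 normalized counts (SD, n = 3 each). The log2 fold change was -0.54 (SE 0.32, 95% interval -1.24 to 0.15, edgeR adjusted p = 0.508), and it was -0.33 without control replicate 1 and -0.79 without control replicate 2.

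Slc17a8 (ENSMUSG00000019935, chromosome 10, 89574020 to 89621253) encodes VGLUT3, which loads glutamate into synaptic vesicles. Its counts were 79, 199 and 232 in the controls and 51, 33 and 36 in Tlx3cko DRGs. After normalization these were 85.3, 198.5 and 185.1 against 49.1, 43.3 and 35.4, so control replicate 1 was again the lowest control and the groups did not overlap. The means were 156.3 ± 61.9 and 42.6 ± 6.85 normalized counts (SD, n = 3 each), which gave a log2 fold change of -1.88 (SE 0.30, 95% interval -2.53 to -1.22, edgeR adjusted p = 0.00276).

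Fam19a4 (ENSMUSG00000046500, chromosome 6, 96831203 to 97060413) encodes TAFA4, a small secreted protein that dampens mechanical pain after injury. It had 327, 622 and 678 counts in the controls and 255, 123 and 171 counts in Tlx3cko DRGs, or 352.9, 620.4 and 540.8 against 245.4, 161.4 and 168.3 normalized counts. Control replicate 1 came nearest to the Tlx3cko libraries, of which replicate 1 was the highest. The means were 504.7 ± 137 and 191.7 ± 46.6 normalized counts (SD, n = 3 each), and the log2 fold change was -1.39 (SE 0.21, 95% interval -1.84 to -0.94, edgeR adjusted p = 0.00158).

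Gm7271 (ENSMUSG00000091204, chromosome 5, 76484040 to 76516649, plus strand) is a predicted gene that GENCODE annotates as protein coding. It had 325, 535 and 830 counts in the controls and 259, 173 and 164 counts in Tlx3cko libraries, or 350.8, 533.6 and 662.1 against 249.3, 227.0 and 161.4 normalized counts. The controls spread widely, yet their lowest library stood above every Tlx3cko library. The means were 515.5 ± 156 and 212.6 ± 45.7 normalized counts (SD, n = 3 each), with a log2 fold change of -1.28 (SE 0.22, 95% interval -1.75 to -0.82, edgeR adjusted p = 0.00354).

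Zfp521 (ENSMUSG00000024420, chromosome 18, 13687013 to 13972787) encodes a nuclear zinc finger protein that works with EBF transcription factors. Its counts were 392, 575 and 674 in the controls and 366, 285 and 284 in Tlx3cko DRGs, or 423.1, 573.5 and 537.6 against 352.2, 374.0 and 279.5 normalized counts. The groups did not overlap, but the gap between the lowest control and the highest Tlx3cko library was narrow. The means were 511.4 ± 78.5 and 335.2 ± 49.5 normalized counts (SD, n = 3 each), and the log2 fold change was -0.61 (SE 0.15, 95% interval -0.93 to -0.30, edgeR adjusted p = 0.0310). This call was lost when control replicate 2, control replicate 3 or any Tlx3cko replicate was left out, with adjusted p of up to 0.154 in edgeR, and was kept without control replicate 1 (-0.73).

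Control replicate 1 was the lowest control for 6 of the 7 genes, the exception being Gch1, whereas it was the lowest control for 32.2% of all genes tested. Its deviation from the control mean was -0.80 for Ddc, -0.78 for Slc17a8, -0.59 for Th, -0.51 for Gm7271, -0.48 for Fam19a4 and -0.26 for Zfp521 on the log2 scale, and 0.43 for Gch1. This library came from an Xist-expressing mouse, like control replicate 2, which had the highest normalized counts of all 6 libraries for Th, Slc17a8, Fam19a4 and Zfp521. What set control replicate 1 apart was not tested.

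Levels can be compared between genes only per length, and were therefore also expressed as RPKM, that is, counts divided by library size and by the length of the gene's exons in kilobases. Th had 43.2 ± 14.3 (SD, n = 3) and Gm7271 41.2 ± 12.5 RPKM in control DRGs, with overlapping ranges, so neither stood above the other. Fam19a4 (5.92 ± 1.61) and Zfp521 (4.86 ± 0.746) came next and overlapped each other. Slc17a8 followed at 2.21 ± 0.875, apart from its neighbours, and Gch1 (0.544 ± 0.185) and Ddc (0.250 ± 0.115) were lowest, with overlapping ranges. In Tlx3cko DRGs Gm7271 led at 17.0 ± 3.65 RPKM and Th came second at 5.74 ± 0.355, with no overlap. Zfp521 (3.19 ± 0.470) and Fam19a4 (2.25 ± 0.547) overlapped below them, followed by Slc17a8 at 0.603 ± 0.0970, Gch1 at 0.375 ± 0.0645 and Ddc at 0.345 ± 0.187. Gch1 and Ddc again overlapped. With the longest transcript in place of merged exons as the length, the order of the control means was the same, but Fam19a4 (lowest control library 6.26 RPKM) no longer overlapped Zfp521 (highest 6.17 RPKM) in the controls. In Tlx3cko DRGs the means of Slc17a8, Gch1 and Ddc were then 0.639, 0.668 and 0.762 RPKM, in the opposite order and with overlapping ranges.

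The falls differed in size, and the 95% intervals of Th and Zfp521 given above were far apart. To compare them within each library, where library size cancels, the log2 ratio of Th counts to the counts of each other gene was taken. The ratio of Th to Fam19a4 was 1.46, 1.66 and 1.62 in the controls and -0.17, 0.29 and 0.21 in the Tlx3cko libraries. Th thus outnumbered Fam19a4 in every control, while the counts of the pair were near parity in every Tlx3cko library. The difference was -1.47 for Fam19a4, -1.60 for Gm7271 (from 1.56 ± 0.29 to -0.04 ± 0.27, SD, n = 3 each) and -2.25 for Zfp521 (from 1.53 ± 0.30 to -0.71 ± 0.20). Slc17a8 came closest to Th, with a ratio of 3.33 ± 0.18 in control and 2.26 ± 0.17 in Tlx3cko DRGs, a difference of -1.06. Against Ddc the ratio went from 6.58 ± 0.23 to 3.35 ± 1.13 (difference -3.23), and against Gch1 from 4.91 ± 1.03 to 2.54 ± 0.30 (difference -2.37). In all 6 ratios the groups did not overlap, and each exact two-sided permutation test gave p = 0.1 (0.1 after Benjamini-Hochberg over the 6 ratios), the smallest value that 3 against 3 libraries allow. Th is in every ratio, so its own fall enters all 6. The share of all genes tested whose ratio with Th separates the groups was not computed.

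**Figure D2:**
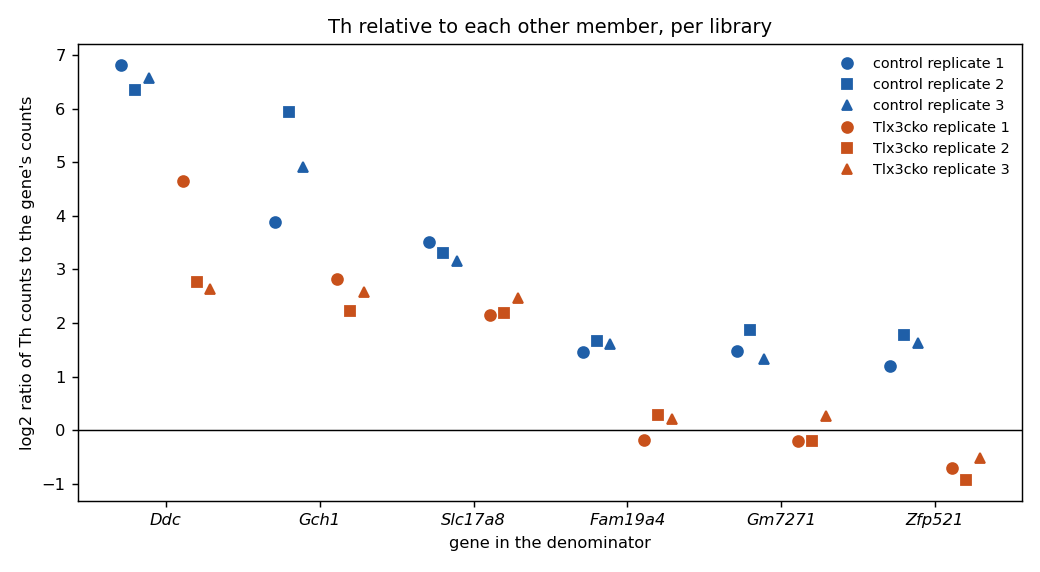
Log2 ratio of Th counts to the counts of each of the other 6 genes, 1 point per library, with controls in blue and Tlx3cko in orange. In each of the 6 ratios the Tlx3cko points lie below the control points, and the gap is smallest for Slc17a8 (difference of the means -1.06).

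The other genes on the route to and from dopamine were examined with lists of named genes. None of the 7 genes for tetrahydrobiopterin synthesis and recycling (such as Pts, Spr and Qdpr) passed the threshold in either direction, and their median log2 fold change was -0.10. Qdpr, which regenerates the cofactor, was the most abundant of them and averaged 1861 ± 232 normalized counts in the controls against 1621 ± 37.4 in Tlx3cko DRGs (SD, n = 3 each, log2 fold change -0.20, edgeR adjusted p = 0.348), and its log2 fold change was -0.09 without control replicate 3. Gchfr, a regulator of the Gch1 enzyme, had only 6 to 33 counts per library. Of the other enzymes that use this cofactor, Tph1 and Tph2 were tested, had at most 21 counts in any library and did not pass. In both lists edgeR gave 0 genes with an unadjusted p under 0.05, and DESeq2 and limma-voom each called 0.

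Of 9 genes for catecholamine conversion, transport and breakdown, 5 had enough counts to be tested and none passed in edgeR, where 2 had an unadjusted p under 0.05 (Maoa and Maob). DESeq2 called 1 of them and limma-voom 0. Slc18a2, the vesicular monoamine transporter that loads dopamine into vesicles, had 328, 458 and 443 counts in the controls and 266, 367 and 515 in Tlx3cko DRGs. Its groups overlapped, at 388.1 ± 59.5 and 414.8 ± 138 normalized counts. The breakdown enzyme Maoa had 484.5 ± 79.1 and 327.4 ± 59.1 normalized counts (log2 fold change -0.56, SE 0.15, edgeR adjusted p = 0.0601), with all Tlx3cko libraries below the controls. It also passed in edgeR without a filter on low counts (adjusted p = 0.000858), a fit whose adjusted p could be far smaller (Th 1.475e-128 against 5.54e-06). Maoa passed the threshold with DESeq2 (adjusted p = 0.0167) and in edgeR without control replicate 1 (0.0275) or without Tlx3cko replicate 1 (0.0229). Its relative Maob had 37.1 ± 2.68 and 60.6 ± 3.09 normalized counts, with all Tlx3cko libraries above the controls (log2 fold change 0.70, SE 0.25, edgeR adjusted p = 0.179). Dbh, which turns dopamine into noradrenaline, had at most 4 counts in any library, and the dopamine transporter Slc6a3 had at most 1. Among the 5 dopamine receptor genes Drd2 was the most abundant, with 17, 39 and 35 counts in the controls against 39, 34 and 42 in the Tlx3cko libraries. Drd1, Drd3, Drd4 and Drd5 had at most 9 counts in any library, and 0 of the 4 receptor genes tested passed in edgeR, DESeq2 or limma-voom (1 had an unadjusted p under 0.05 in edgeR, Drd1).

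**Figure D3:**
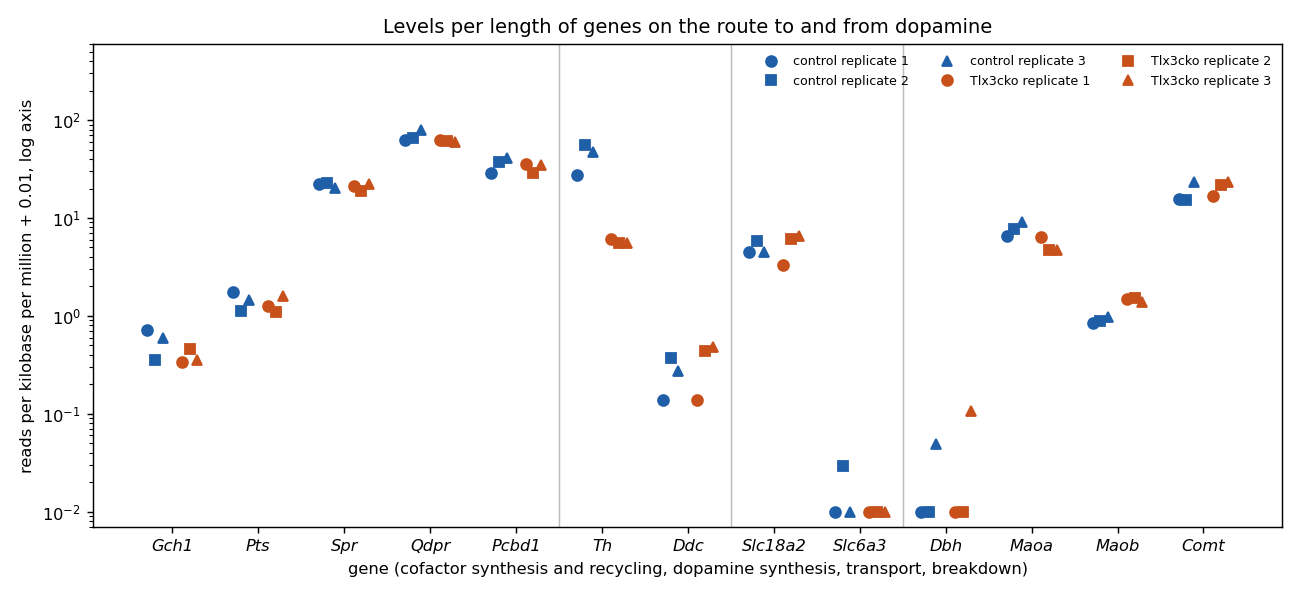
Levels per length (RPKM + 0.01, log axis) of genes for the TH cofactor, dopamine synthesis, transport and breakdown in each library, with controls in blue and Tlx3cko in orange. Th is the gene whose groups stand farthest apart, and Slc6a3 and Dbh are the lowest of these genes in the controls, with Dbh at the bottom of the axis in all but the third library of each genotype.

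Among the vesicular glutamate transporters, only Slc17a8 passed the threshold in edgeR, DESeq2 or limma-voom. Slc17a6 (VGLUT2) averaged 2923 ± 304 normalized counts in the controls and 2851 ± 138 in Tlx3cko DRGs (log2 fold change -0.04, edgeR adjusted p = 0.911), and Slc17a7 (VGLUT1) had 4703 ± 527 and 5323 ± 241 (0.18, adjusted p = 0.371). Slc17a8 took 1.21%, 3.13% and 2.61% of the reads per kilobase of the 3 transporters in control replicates 1, 2 and 3, and 0.650%, 0.628% and 0.497% in Tlx3cko replicates 1, 2 and 3. The share was thus small in every library, and every Tlx3cko value was below the lowest control. The means were 2.32% ± 0.993 and 0.591% ± 0.0827 (SD, n = 3 each), with an exact two-sided permutation p of 0.1, the smallest this design can give.

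Fam19a4 was likewise the only one of the 5 TAFA genes to pass in edgeR, DESeq2 or limma-voom. The log2 fold changes of Fam19a1, Fam19a2, Fam19a3 and Fam19a5 lay between -0.10 and 0.20 with adjusted p of at least 0.532 in edgeR. None of the 5 genes listed as paralogue or partners of Zfp521 passed in edgeR, DESeq2 or limma-voom, and 1 had an unadjusted p under 0.05 in edgeR (Ebf3, which passed at an adjusted p of 0.0453 in edgeR without a filter on low counts, the fit with far smaller adjusted p for Th). Its paralogue Zfp423 had 412 ± 59.2 and 409.7 ± 21.7 normalized counts (SD, n = 3 each, log2 fold change -0.01, edgeR adjusted p = 0.988). Ebf3 had 1142 ± 139 and 924.4 ± 161 normalized counts (log2 fold change -0.31, SE 0.13, edgeR adjusted p = 0.271), and its groups overlapped. Cbfb, the common partner of RUNX factors, had 2373 ± 72.3 and 2579 ± 70.5 normalized counts (log2 fold change 0.12, edgeR adjusted p = 0.520).

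A list of 14 other genes known from C-LTMRs was then compared. Several of them, such as Ret, Runx1, Gfra2, Piezo2 and Scn10a, are also used by other DRG neurons. In edgeR 10 of the 14 were lower in Tlx3cko DRGs (2.56% of all genes tested), 1 was higher and 3 did not pass, and their median log2 fold change was -0.80. The largest falls were those of Cacna1i, a T-type calcium channel, and Cdh9, a cadherin. Cacna1i had 262, 461 and 390 normalized counts in the controls and 115, 89.2 and 77.7 in Tlx3cko DRGs (log2 fold change -1.98, SE 0.22, adjusted p = 0.000133). Cdh9 had 52.9, 77.8 and 96.5 against 23.1, 10.5 and 25.6 normalized counts (-1.91, SE 0.35, adjusted p = 0.00648). Neither gene overlapped between the groups, and for both control replicate 1 was the lowest control, as it was for 11 of the 14 genes. Wnt2b, a secreted Wnt ligand, fell from 624 ± 68.9 to 233.8 ± 16.8 normalized counts (-1.42, adjusted p = 2.28e-05), and Gfra2, the neurturin co-receptor, from 2997 ± 677 to 1214 ± 41.7 (-1.30, adjusted p = 9.05e-05). The transcription factor Runx1 fell from 1451 ± 231 to 675 ± 60.8 normalized counts (-1.11, adjusted p = 0.000110) and was highest in control replicate 1.

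Rarres1 (-1.09), the POU factor Pou4f2 (-0.85), the ADP receptor P2ry1 (-0.75), Cd34 (-0.52) and the signalling receptor Ret (-0.33) were also lower in edgeR. The calls of P2ry1, Cd34 and Ret were less stable. P2ry1 and Cd34 each lost theirs in 5 of the 6 fits without 1 library (all but the one without control replicate 1), Cd34 also lost its call in limma-voom (adjusted p = 0.0526), and Ret lost its call in 4 of the 6 fits (without control replicate 2 or 3, or Tlx3cko replicate 2 or 3). The mechanically gated channel Piezo2 had a log2 fold change of -0.20 (edgeR adjusted p = 0.233), Cacna1h, another T-type channel, -0.18 (adjusted p = 0.394), and Bnc2 0.10 (adjusted p = 0.855). Scn10a, which encodes Nav1.8, rose from 24208 ± 1097 to 32660 ± 2160 normalized counts (log2 fold change 0.43, SE 0.07, edgeR adjusted p = 0.00281). It was the only gene of the 14 whose Tlx3cko libraries all lay above the controls.

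**Figure D4:**
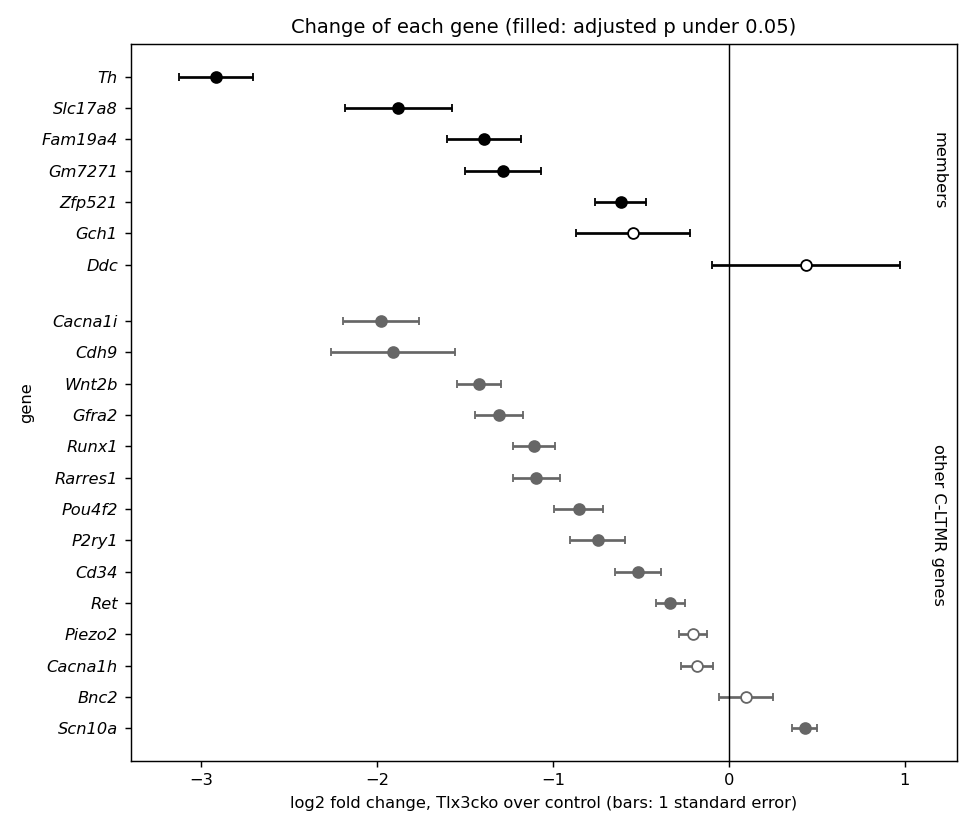
Log2 fold changes (Tlx3cko over control) of the 7 genes (members, black) and of 14 other C-LTMR genes (grey), with bars of 1 standard error and filled points for an adjusted p under 0.05. Th lies farthest to the left at -2.91, and Scn10a is the only filled point to the right of 0, at 0.43.

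The genes outside these lists whose profile over the 6 libraries was most like that of Th were Dapk1, Phactr1, Kcnd3, Cpe and Nap1l4, with Pearson r on log2 CPM (counts scaled to library size) of 0.997, 0.997, 0.997, 0.997 and 0.996 among 13373 genes averaging 50 or more normalized counts. The 6 libraries form 2 genotype groups, so any gene that is lower in Tlx3cko and lowest among controls in replicate 1 scores high by this measure. Kcnd3, a voltage-gated potassium channel, had 1604, 2149 and 2178 normalized counts in the controls and 929, 870 and 847 in Tlx3cko DRGs (log2 fold change -1.16, edgeR adjusted p = 5.20e-05). Dapk1, a kinase, had 2099, 2452 and 2489 against 1271, 1202 and 1226 (-0.93, adjusted p = 3.48e-05). The log2 fold changes of the other three were smaller, at -0.45 for Phactr1, -0.38 for Cpe and -0.23 for Nap1l4, and Nap1l4 did not pass the threshold (adjusted p = 0.102). Among the 7 genes, r with Th was 0.973 for Slc17a8, 0.967 for Fam19a4, 0.939 for Gm7271, 0.918 for Zfp521, 0.429 for Gch1 and -0.16 for Ddc.

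Because sympathetic neurons also make TH, their markers were examined in every library. Hand2 had 0 counts in all 6 libraries, Gata3 at most 1, the noradrenaline transporter Slc6a2 at most 4 and Dbh at most 4, whereas Phox2a was present in every library with 25, 11 and 15 counts in the controls and 16, 16 and 11 in Tlx3cko (edgeR adjusted p = 0.971). The most abundant gene of that list in the controls was Slc18a2, and 0 of the 3 tested passed in edgeR, DESeq2 or limma-voom (1 had an unadjusted p under 0.05 in edgeR, Npy). Npy had 2, 2 and 8 counts in the controls and 158, 8 and 0 in Tlx3cko libraries, so the list's summed level of 21.8 RPKM in Tlx3cko replicate 1, against 5.71 to 8.08 in the other libraries, rested on Npy in that library. Th in Tlx3cko replicate 1 was 218 normalized counts, beside 197 and 195 in the other Tlx3cko libraries.

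The summed level of the 7 genes was 65.7, 114 and 115 RPKM in the controls and 33.4, 30.6 and 24.4 in Tlx3cko DRGs. Th and Gm7271, with means of 43.2 and 41.2 RPKM in the controls, made up most of that sum. The summed pan-neuronal and DRG markers, with Tubb3 the most abundant, were 4741, 5159 and 4861 in the controls and 5238, 4840 and 4753 in Tlx3cko, and 0 of 8 passed in edgeR, where 3 had an unadjusted p under 0.05. DESeq2 called 1 (Snap25, higher) and limma-voom 0. Markers of other neuron classes moved with genotype as well. For the NP1 (MrgprD) neurons 5 of 6 markers were lower and 0 higher (median log2 fold change -1.30), for the MrgprB4 neurons 2 of 2 were lower, for peptidergic neurons 2 of 5 were higher (Calca among them) and for myelinated neurons 2 of 7 were higher (Pvalb and Nefh), a count that was 1 without control replicate 2 or 3 and 3 without control replicate 1 or without a filter on low counts. No marker of satellite glia (5 tested), immune cells (5), blood (5), adipocytes (3) or spinal cord (2) passed in edgeR, with 2, 0, 1, 0 and 0 of them at an unadjusted p under 0.05, and DESeq2 called 2 of them, both of satellite glia. In edgeR 1 of 5 Schwann cell markers (Egr2) and 1 of 4 endothelial markers (Pecam1) were higher. For Schwann cells DESeq2 called 3 (Egr2 and Prx higher, Pmp22 lower) and limma-voom 2, and the edgeR count of higher genes dropped to 0 when control replicate 2 or either of Tlx3cko replicates 2 and 3 was left out. The endothelial count did so when control replicate 3 or either of the same Tlx3cko libraries was left out. Skeletal muscle markers, with Acta1 the most abundant, summed to 52.4, 14.8 and 2.71 RPKM in the controls and 67.8, 63.7 and 37.5 in Tlx3cko, and 1 of the 5 was higher (Myh4). This count was 0 in DESeq2 and without control replicate 2, and 4 without control replicate 1 or without a filter on low counts. Control replicate 1, the lowest control for Th, had the highest muscle sum of the controls and the highest blood sum of all libraries, 311 against 118 to 220 in the others. The part of muscle or blood carry-over in the results for the 7 genes was not tested.

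**Figure D5:**
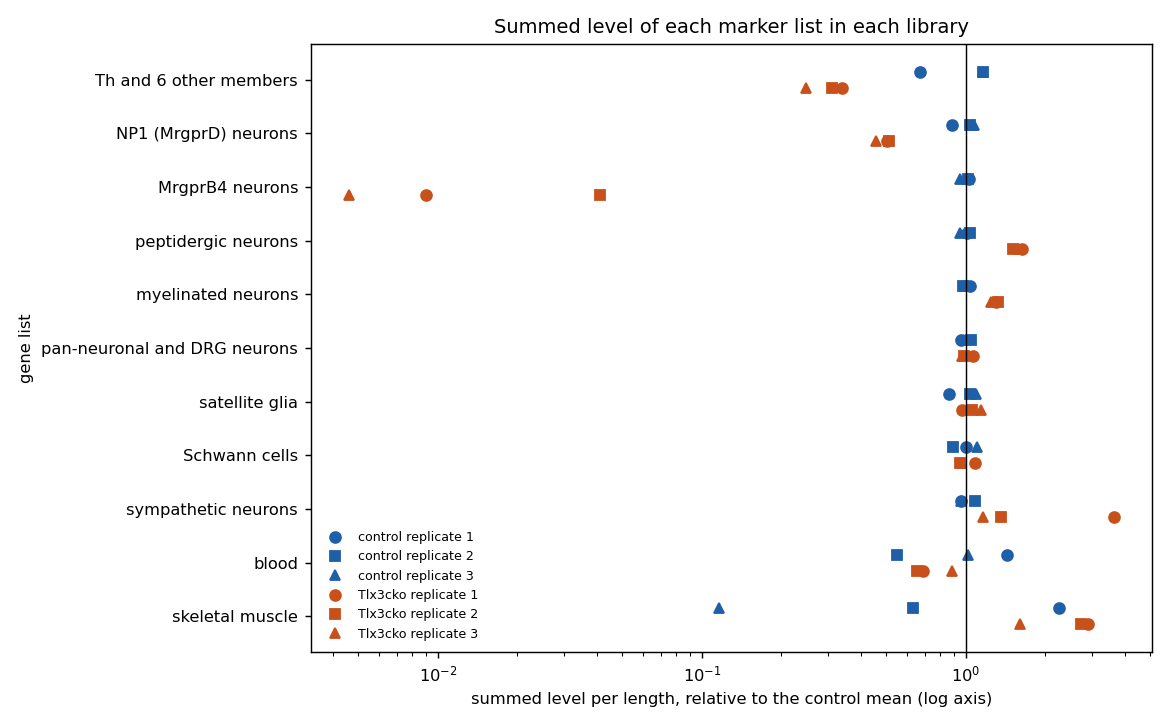
Summed level per length of each marker list in each library relative to its control mean (log axis, 1 marks the control mean), with controls in blue and Tlx3cko in orange. The sum of the 7 genes (top row) lies between the NP1 and MrgprB4 lists in how far the Tlx3cko libraries sit below 1, and the pan-neuronal list sits near 1 in all 6 libraries. Th and Gm7271 (43.2 and 41.2 RPKM in the controls) make up most of the top row. By median log2 fold change the 7 genes (-1.28) and the NP1 list (-1.30) were alike.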

How the data were processed

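The authors deposited raw read counts per gene, without normalization, for 3 control and 3 Tlx3cko DRG libraries. Per the submitters' processing notes, STAR 2.5.2a and the mouse build mm10 were used. The counting program and the use of strand are not given in the sources used here. The libraries were made with a NEBNext Ultra kit and sequenced as paired-end reads of 150 bases. Replicates are separate mice per the study's methods. The 7 genes and all gene lists were chosen with earlier results of these data known.

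Of 47937 rows, 47729 carry Ensembl identifiers and were matched to GENCODE M21 (GRCm38). Genes with at least 10 counts in total (20006) were normalized by TMM, scaled to a mean effective library of 14970767 counts, and tested in edgeR 4.0.16 (R 4.3.3) with the quasi-likelihood F-test and Benjamini-Hochberg adjustment, threshold 0.05. Replicates of 1 genotype differed by chi-square values per degree of freedom of 4.32 to 10.1. Within simulated data (19628 genes, 200 of them changed), the test recovered 76% of 2-fold and 91% of 4-fold changes, and 7.73% of its calls were unchanged genes. The changed genes were drawn only from those above a set mean count, which Ddc did not reach. The recovery rates therefore do not cover scarce genes. Levels per length used merged exons. Ratios and shares were tested by exact permutation. No transcript of another gene matched the 7 genes over at least 100 bases at 98% identity (blastn 2.17.0+), and 0% of their exonic bases lie under another gene. Promoters are from a table of RefSeq promoter windows, in which 5 of the 7 genes were matched to 7 windows. Genes named are the 7 genes, Tlx3, Xist, Ddx3y, the listed genes, and the 5 genes outside the lists closest to Th by Pearson r. Alternatives covered DESeq2 1.42.0, limma-voom (limma 3.58.1), other normalizations, filters and thresholds, the replicate number as a block, each library left out in turn, and the 4 libraries with Y-linked reads alone (1 control against 3 Tlx3cko). Some genes of these lists are not reported here.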

Additional observations from a re-analysis of the deposited data

How the results depend on the processing

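Of 298 values recomputed for the main comparisons, 280 kept their call or, where there was no test, stayed near the main value. Without a test that meant a move of less than the replicate spread, except for counts of genes. Counts had only to stay within a fixed ratio of the main count. Thus 851 and 1151 genes called (edgeR and DESeq2) were held the same, as were 10 and 7 other C-LTMR genes lower (all libraries and without control replicate 2). No gene or ratio among the 298 values changed sign. Medians near 0 did, in 12 values of 3 lists. They ranged with each library left out from -0.092 to 0.053 for the vesicular glutamate transporters, -0.099 to 0.083 for the TAFA genes and -0.012 to 0.050 for the Zfp521 partners. The count of all genes called went from 851 to 1529 without a filter on low counts, to 418 at an adjusted p under 0.01, to 553 with control replicate 3 as the only control (the libraries with Y-linked reads, in which 1 control is assumed to vary like the Tlx3cko libraries), and between 488 and 938 with each library left out. Without the filter on low counts adjusted p could be far smaller at nearly the same fold change (Th 1.475e-128 against 5.54e-06 in the main fit). The 1529 calls of that fit are therefore not comparable with those of the others, and the reason was not tested. The number of the 7 genes called lower stayed at 4 or 5. Th, Slc17a8, Fam19a4 and Gm7271 kept their calls in all 15 alternative fits, with highest adjusted p of 0.000150, 0.0185, 0.0145 and 0.0188. Zfp521 did not pass with control replicate 3 as the only control (-0.69, adjusted p = 0.0868), which cannot show an effect of sex, and ranged from -0.73 to -0.50 with each library left out. With control replicate 3 alone the median log2 fold change was -1.01 for the other C-LTMR genes and -0.20 for the vesicular glutamate transporters. The cofactor genes' median ranged from -0.13 to -0.0024 with each library left out. With the longest transcript in place of merged exons, control levels were 0.553 for Ddc, 0.970 for Gch1 and 8.95 RPKM for Fam19a4. Values near 0 changed sign for Zfp423 (0.0017 with limma-voom, 0.0022 with filterByExpr, -0.12 to 0.079 without 1 library), Bnc2 (-0.033 with control replicate 3 alone, -0.038 to 0.17 without 1 library) and Slc17a6 (-0.092 to 0.053 without 1 library). The cause of these shifts was not tested. Whether the replicate numbers pair the mice is not stated in the sources used here. Correlations of deviations were -0.129, -0.0159 and -0.109 for numbers 1, 2 and 3, and -0.00702 to 0.124 between unlike numbers. These values cannot show whether mice were paired. With the replicate block 770 genes were called, the same 5 of the 7 genes were lower, 3 skeletal muscle markers were higher, and Ret and Cd34 did not pass (adjusted p = 0.0671 and 0.0501). Ddc and Gch1 had 8 to 69 counts per library, and whether depth or the spread between mice limits them was not tested.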
